A study of Mus musculus with 6 samples.

Results

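The 10 genes described here, Ddit3, Atf4, Hspa5, Xbp1, Trib3, Chac1, Asns, Sesn2, Herpud1 and Ddit4, are widely used readouts of endoplasmic reticulum (ER) stress and of the integrated stress response. They were listed by gene name, with no threshold on their values but with earlier results of these data known, and each occurs in 1 row of a deposited table that lists 53797 genes. The table comes from RNA-seq of MLO-Y4 cells, a mouse line with features of osteocytes, the cells embedded in bone matrix. In the LIPUS group, 3 cultures received low-intensity pulsed ultrasound (LIPUS; 1.5 MHz, 30 mW/cm2) for 20 min, and RNA was taken 30 min after the stimulation ended. The Control group was 3 untreated cultures, held in wells of the same plates above unplugged transducers. The study describes a control library that lay apart from the other control libraries, and raises leakage of ultrasound into control wells. The table gives a single FPKM (fragments scaled to exon length and to all mapped reads) for each group, so the part of that library in the values below was not tested.

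With 1 FPKM per group, no SD, interval or p-value can be computed here. Whether a difference is larger than the spread between cultures cannot be told from these values. Differences are therefore described on the scale log2((LIPUS FPKM + 1)/(Control FPKM + 1)), where negative values are lower with LIPUS, and a size of 0.5 or more, about 1.41-fold, is called past the fold. The added 1 FPKM understates the differences of weakly expressed genes. Cuffdiff, the program that made the table, had enough reads to test 8145 genes (status OK) and left the others untested (status NOTEST). Of the genes with status OK, 5.71% were lower past the fold and 5.71% were higher past it, and their median log2 ratio was 0.0039. The read depth of the libraries cannot be read from the table.

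When unfolded proteins collect in the ER, the sensors PERK (Eif2ak3), IRE1 (Ern1) and ATF6 start the unfolded protein response. IRE1 splices Xbp1 mRNA into the template of an active factor, ATF6 is cut by proteases of the Golgi, and both factors switch on chaperones and the machinery that removes misfolded proteins. PERK and its relative kinases for amino acid lack, viral RNA and heme shortage phosphorylate eIF2alpha, which slows translation in general but favours that of Atf4 mRNA. ATF4 then activates genes for amino acid supply and, with CHOP (Ddit3), for growth arrest and cell death. Osteocytes and osteoblasts secrete much matrix protein, and ATF4 is known as a factor of osteoblast differentiation. Much of this control acts on translation, splicing and phosphorylation, which FPKM per gene does not measure.

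Among the 10 genes, 6 were lower and 4 were higher with LIPUS by any amount, and 2 were past the fold, Trib3 and Chac1, both of them lower. In the whole table, 8.83% of the 11999 genes with an FPKM of 1 or more in a group were lower past the fold. Of the 9 members with status OK, 1 (Chac1) was lower past the fold and 0 were higher, and 5 were lower by any amount, beside 49.2% of all genes with status OK. The median log2 ratio was -0.16 over the 10 members and -0.14 over the 9 with status OK. It turned to 0.01 over the members with status OK that reached 10 FPKM in a group, which leaves out the weakly expressed Chac1 and Sesn2. The order of the members by FPKM was the same in the Control and LIPUS groups, from Hspa5 and Atf4 at the top to Chac1 and Trib3 at the bottom.

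**Figure D1:**
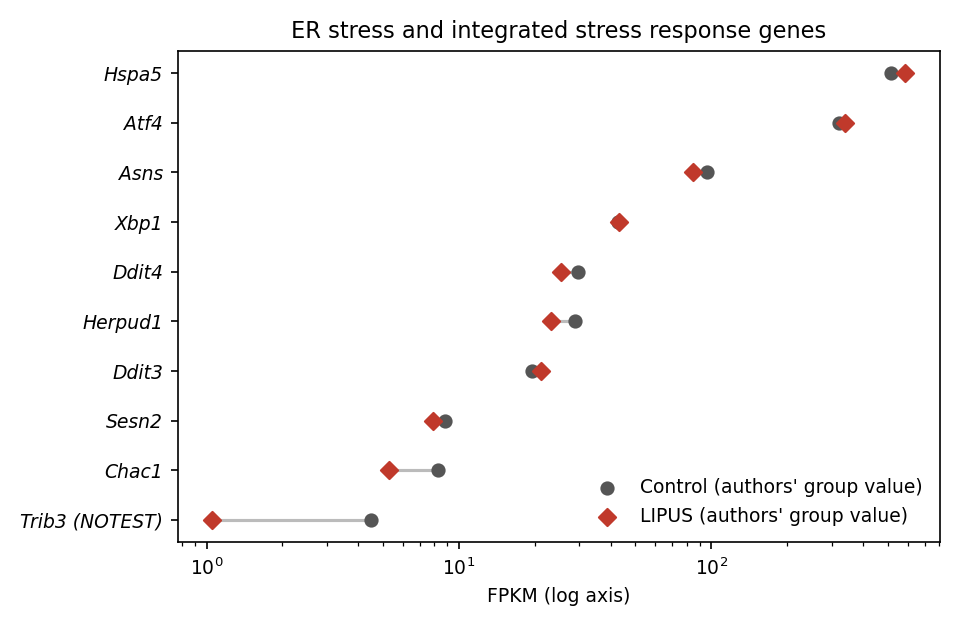
Authors' group FPKM of each member (horizontal log axis) in Control (grey circles) and LIPUS (red diamonds). The symbols of 8 genes lie close together, while Chac1 (8.30 in Control, 5.27 in LIPUS) and above all Trib3 (4.47 in Control, 1.05 in LIPUS) are drawn apart.

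Of the members, Atf4, Xbp1 and Ddit3 encode transcription factors, and their log2 ratios lay between 0.01 and 0.11. Atf4, the central factor of the integrated stress response, had an FPKM of 321 in Control and 337 in LIPUS (log2 ratio 0.07), and it was abundant, with 265 genes above it in Control and 270 in LIPUS. Xbp1, whose spliced mRNA encodes the IRE1-dependent factor, was at 42.6 and 42.9 FPKM. Its log2 ratio of 0.01 turned to -0.03 when both groups were rescaled to the same sum, so Xbp1 has no stable direction. A gene-level FPKM does not separate spliced from unspliced Xbp1 mRNA. Ddit3, which encodes CHOP, was at 19.6 FPKM in Control and 21.2 in LIPUS (log2 ratio 0.11). Atf4 lies on chromosome 15 of GRCm38 from 80255184 to 80257541 and Xbp1 on chromosome 11 from 5520659 to 5525893, and no other annotated gene overlaps either of them.

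The value of Ddit3 is uncertain for a further reason. Ddit3 lies on chromosome 10 from 127290774 to 127296288 (plus strand), and a second entry of the annotation, listed in the table as AC144852.1 and named Ddit3 in GENCODE M21, lies inside it from 127290829 to 127293753 on the same strand. This entry has 2 exons with 105 bases in all, and all 105 are exonic bases of Ddit3 too. The table lists AC144852.1 at an FPKM of 1122 in LIPUS and at 0 in Control, with status NOTEST. The table holds 2893 genes with at most 105 exonic bases, and AC144852.1 is the only 1 of them above 0. Reads of the shared bases can belong to either entry, and an FPKM over so short a length is not comparable with that of Ddit3, whose exons cover 1713 bases. No fold is given for it, and how many reads it took from Ddit3 in each group cannot be read from FPKM. At its other end, Ddit3 shares 68 exonic bases with Mars, a tRNA synthetase gene on the opposite strand, which was at 50.8 FPKM in Control and 51.8 in LIPUS. Whether the strand was used in counting is not given in the sources used here.

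The members that act in the ER itself differed in direction. Hspa5, which encodes BiP, the major chaperone of the ER lumen, was the most abundant member, at 513 FPKM in Control and 585 in LIPUS. Its log2 ratio of 0.19 was the highest of the members and was matched or passed by 119 of the 500 genes with status OK nearest to it in level. Herpud1, a membrane protein that helps to assemble the complex for ER-associated degradation, was at 28.8 FPKM in Control and 23.2 in LIPUS (log2 ratio -0.30). Of the 500 genes nearest to Herpud1 in level, 58 were as low or lower in log2 ratio. Both differences thus had a size that many of these neighbours reached. The neighbours of Hspa5 had mean values between 169 and 1717 FPKM, so they match its level only loosely.

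Hspa5 and Herpud1 are textbook carriers of ER stress elements, and their promoters are shown because these elements are read by ATF6 and XBP1. The sequences are the 250 bases before the RefSeq start in GRCm38.p6, both on the plus strand, at chr2:34771840-34772089 for Hspa5 and chr8:94386179-94386428 for Herpud1. Capitals mark in Hspa5 a match to the ER stress element, which is CCAAT, 9 bases of any kind and CCACG. In Herpud1 they mark the C/EBP-ATF element TGATGNAA (on the minus strand of the gene), followed by the ER stress element II, which is ATTGG, 1 base of any kind and CCACG.
Hspa5: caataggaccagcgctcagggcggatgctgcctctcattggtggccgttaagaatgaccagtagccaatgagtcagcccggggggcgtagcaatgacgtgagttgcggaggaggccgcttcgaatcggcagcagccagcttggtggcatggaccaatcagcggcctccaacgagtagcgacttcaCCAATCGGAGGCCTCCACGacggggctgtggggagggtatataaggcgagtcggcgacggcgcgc
Herpud1: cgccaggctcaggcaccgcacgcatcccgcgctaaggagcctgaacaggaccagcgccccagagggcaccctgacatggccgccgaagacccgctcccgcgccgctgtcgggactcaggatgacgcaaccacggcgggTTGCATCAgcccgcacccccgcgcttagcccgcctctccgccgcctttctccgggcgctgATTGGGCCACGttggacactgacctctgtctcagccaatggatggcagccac

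The match in Hspa5 begins 65 bases before the start. The matches in Herpud1 begin 112 and 52 bases before it, and they do not overlap. All 4 motifs, the fourth being the unfolded protein response element TGACGTGG, were searched on both strands in windows from 250 bases before to 50 bases after the start of 32851 RefSeq promoters. The ER stress element was found in 0.119% of these promoters, the ER stress element II in 0.0365%, the C/EBP-ATF element in 3.97% and the unfolded protein response element in 0.676%. A match describes letters in this window, and binding was not measured.

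Asns, Chac1, Trib3, Sesn2 and Ddit4, known targets of ATF4, were all lower with LIPUS, with log2 ratios from -0.14 to -1.41. Ddit3, which ATF4 also activates, was not. By any amount, 49.2% of all genes with status OK were lower. Of the other ATF4 targets described below, Ppp1r15a was slightly higher (0.06) and Atf3 was lower (-0.47, NOTEST). The members are thus not the whole set of ATF4 targets. Asns, which makes asparagine from aspartate, was at 95.7 FPKM in Control and 84.4 in LIPUS (log2 ratio -0.18). Sesn2 and Ddit4 both restrain mTORC1, the kinase complex that promotes growth. Sesn2 was at 8.84 FPKM in Control and 7.93 in LIPUS (-0.14), and Ddit4 at 29.6 and 25.3 (-0.22). These 3 genes were inside the fold, and 62 (Asns), 188 (Sesn2) and 87 (Ddit4) of their 500 nearest genes in level were as low or lower. Ddit4 is also induced by hypoxia and glucocorticoids, and Sesn2 by p53.

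Chac1, an enzyme that degrades glutathione, was at 8.30 FPKM in Control and 5.27 in LIPUS, so that the Control value was 1.57 times the LIPUS value (log2 ratio -0.57). It lies on chromosome 2 from 119351229 to 119354381. Of the 500 genes nearest in level, 47 were as low or lower, and the central 95% of these genes spanned log2 ratios from -0.90 to 0.78. The difference of Chac1 was thus past the fold but inside the range common at its level.

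Trib3, a pseudokinase that binds ATF4 and CHOP and dampens their activity, differed most. It was at 4.47 FPKM in Control and 1.05 in LIPUS, a Control value 4.25 times the LIPUS value, and its log2 ratio was -1.41, or -2.09 without the added 1 FPKM. Trib3 lies on chromosome 2 from 152337422 to 152344032 on the minus strand, and no annotated gene overlaps it. Cuffdiff gave it the status NOTEST, and every gene with status OK reached 6.70 FPKM or more in a group, which Trib3 did not. Of the 500 genes of any status nearest to Trib3 in level, 4 were as low or lower, and these neighbours had mean values between 2.42 and 3.14 FPKM. Among all 11999 genes with an FPKM of 1 or more in a group, 91 (0.758%) were as low or lower. Whether a single library sets this difference cannot be read from group values.

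**Figure D2:**
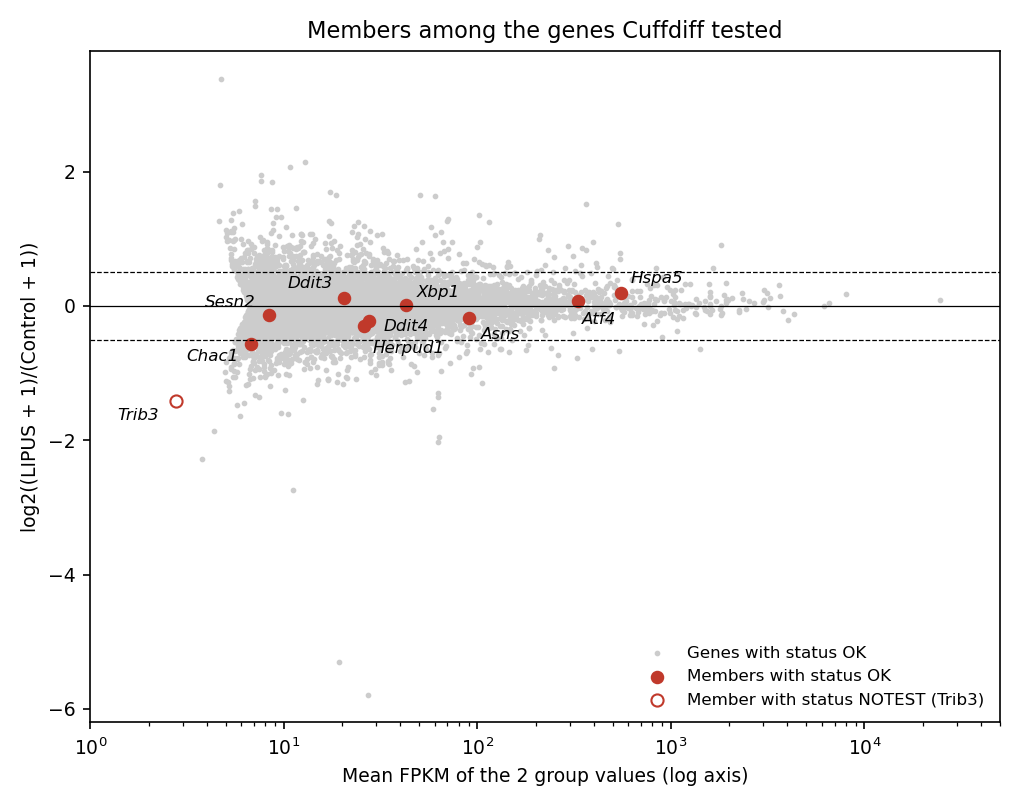
Each grey point is a gene with status OK, by the mean of its group FPKM values (log axis) and its log2 ratio, and the dashed lines mark a size of 0.5. The 9 members with status OK (filled red) lie between -0.57 and 0.19, and Trib3 (open red) lies at -1.41, to the left of the tested genes.

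Promoter sequences are shown for these targets because 3 of the 5, Asns, Chac1 and Trib3, hold the C/EBP-ATF element to which ATF4 binds with C/EBP factors. Capitals mark the match to TGATGNAA, which reads TGATGAAA in Asns and lies on the minus strand of the gene in Chac1 and Trib3. The Asns sequence is chr6:7693210-7693459 (minus strand) and the Chac1 sequence chr2:119350992-119351241 (plus strand), each the 250 bases before the RefSeq start in GRCm38.p6. The match in Trib3 begins at base 15, counted from the start as base 1, and 30 bases around it are shown, at chr2:152344028-152344057 (minus strand).
Asns: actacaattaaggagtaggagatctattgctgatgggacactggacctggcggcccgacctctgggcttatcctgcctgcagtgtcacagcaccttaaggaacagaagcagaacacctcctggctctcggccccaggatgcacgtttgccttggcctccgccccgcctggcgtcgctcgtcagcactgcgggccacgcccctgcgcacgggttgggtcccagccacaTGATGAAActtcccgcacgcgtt
Chac1: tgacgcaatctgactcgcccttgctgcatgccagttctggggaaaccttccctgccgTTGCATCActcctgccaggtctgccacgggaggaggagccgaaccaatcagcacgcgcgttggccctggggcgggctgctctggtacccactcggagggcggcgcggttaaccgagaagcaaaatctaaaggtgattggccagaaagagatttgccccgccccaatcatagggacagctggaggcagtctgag
Trib3: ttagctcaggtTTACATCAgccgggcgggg

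With Herpud1, 4 of the 10 members held TGATGNAA in the window, and all 4 were lower with LIPUS. Atf4, Ddit3, Xbp1, Sesn2 and Ddit4 held none of the motifs searched, which says only that these letters are not in this window. Over all genes, those with the element lay close to the rest in direction. Of the 154 genes with status OK and this element, 47.4% were lower by any amount, beside 49.0% of the 6359 genes with a listed promoter, and their median log2 ratio was 0.02. Past the fold and lower were 10.4% of these 154 genes, beside 5.55% of the 6359, which include them. The share higher past the fold was not computed for the 154 genes. A lowering can therefore not be told from a wider spread in both directions. Among the members and the pathway genes below, 17 held the element, of which 11 were lower and 6 higher by any amount, with Nupr1 at 0.49 and Pycr1 at 0.40 as the highest.

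The other genes of the pathway were taken from 9 lists of 97 genes in all, ordered by role. No list was tested as a set. For comparison, 4006 of all 8145 genes with status OK were lower by any amount and 4139 were higher. Past the fold were 5.71% of them in each direction. The stress kinases and ER sensors had 7 genes with status OK, and 0 of them were past the fold in either direction. Their median log2 ratio was 0.01, but 0.18 over those that reached 10 FPKM and -0.04 with both groups rescaled to the same sum. Mbtps1, the protease that first cuts ATF6, was highest (31.4 to 38.1 FPKM, log2 ratio 0.27), and Eif2ak2, the kinase for viral RNA that is also induced by interferon, was lowest (43.8 to 32.2 FPKM, -0.43) and the most abundant in Control. Eif2ak3 and Ern1, which encode PERK and IRE1, had status NOTEST, with 3.84 and 4.66 FPKM for Eif2ak3 and 6.39 and 6.65 for Ern1 in Control and LIPUS.

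At the translation step, 0 of 10 genes were past the fold, with a median of 0.0007, or -0.04 after the same rescaling. Eif2b1, a subunit of the exchange factor that phosphorylated eIF2alpha inhibits, was highest (16.3 to 20.4 FPKM, 0.31), Eif2b5 of the same complex was lowest (29.7 to 25.5 FPKM, -0.21), and the most abundant were Eif2s2, a subunit of eIF2, in Control (89.1 FPKM) and Eif2b2 in LIPUS (93.8 FPKM). Ppp1r15a, the inducible phosphatase subunit GADD34 that restores translation and is itself a target of ATF4, was at 21.7 FPKM in Control and 22.8 in LIPUS (0.06).

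Among transcription regulators that act with ATF4 and CHOP, 7 of the 8 genes with status OK were higher by any amount and 1, Trib1, was past the fold. Of all 8145 genes with status OK, 4139 were higher by any amount and 5.71% were higher past the fold. The median of the list was 0.21, and 0.10 over all its genes with the NOTEST genes Atf3 and Trib2 included. Trib1, a relative of Trib3, was at 29.0 FPKM in Control and 44.3 in LIPUS (log2 ratio 0.59). Nupr1, a stress-induced chromatin protein and the most abundant gene of this list, was at 128 and 180 FPKM (0.49), just inside the fold. Cebpg, a partner of ATF4, was lowest among those with status OK (13.8 to 13.2 FPKM, -0.06). Atf3, an early response factor that ATF4 also induces, had status NOTEST, at 5.58 FPKM in Control and 3.75 in LIPUS (-0.47).

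The lists for amino acid supply had medians below 0. Of all genes with status OK, 49.2% were lower by any amount. All 7 transporters with status OK were lower by any amount and 0 were past the fold, with a median of -0.27. Their values ran from -0.31 (Slc38a2, a carrier of neutral amino acids, 33.9 to 27.2 FPKM) to -0.03 (Slc6a9, a glycine carrier, 14.7 to 14.4 FPKM). The most abundant of them was Slc3a2, the common heavy chain of several carriers (114 to 107 FPKM, -0.10). Of the 11 aminoacyl-tRNA synthetases, 8 were lower by any amount and 0 past the fold, with a median of -0.10, from -0.42 (Cars, 40.8 to 30.2 FPKM) to 0.12 (Yars, 34.1 to 37.0 FPKM). Tars was the most abundant in Control, at 154 FPKM.

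The enzymes of amino acid and one-carbon synthesis were split, with 1 of 8 lower and 1 higher past the fold and a median of -0.12. Among all genes with status OK, 5.71% were past the fold in each direction. Phgdh, the first enzyme of serine synthesis, was at 53.4 FPKM in Control and 35.1 in LIPUS (-0.59). Cth, which makes cysteine from cystathionine, was at 19.9 and 30.1 FPKM (0.57). Shmt2, a mitochondrial enzyme of one-carbon metabolism, was the most abundant (146 to 133 FPKM, -0.13). Of the genes with status NOTEST, Cbs, which forms cystathionine in the step before Cth, was at 3.69 FPKM in Control and 0.193 in LIPUS (-1.98), and Gpt2, an alanine transaminase, at 5.90 and 3.64 (-0.57). Both were named after their values were seen.

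The chaperones and oxidoreductases of the ER lumen lay on the other side of 0. Of 16 genes, all with status OK, 14 were higher and 2 lower by any amount, and the median was 0.10, or 0.05 with both groups rescaled to the same sum. Of all 8145 genes with status OK, 4139 were higher by any amount and 5.71% were higher past the fold. Of the 16 genes of this list, 2 were higher past the fold. These were Sdf2l1 (10.1 to 15.4 FPKM, 0.57), a partner of BiP, and Dnajb9 (7.71 to 11.3 FPKM, 0.50), a co-chaperone induced by XBP1. Dnajb9 lay at the threshold, and was inside it when the ratios were centred on the median of all genes with status OK or both groups were rescaled to the same sum. The lowest was Ero1l, the oxidase that supplies disulfide bonds (30.4 to 26.9 FPKM, -0.17). The abundant chaperones differed little, with the lectin chaperone Calr at 1466 FPKM in Control and 1538 in LIPUS (0.07). The ER stress element was found in Hspa5 and 8 further genes of the lists. Of these 8, Derl3 was at 0 FPKM in both groups (NOTEST). The log2 ratios of the others ran from -0.06 (Canx) to 0.22 (Creld2).

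In the list for ER-associated degradation and translocation, 2 of 10 genes with status OK were past the fold, both lower. Of all genes with status OK, 5.71% were lower past the fold. The median of the list was -0.05, or -0.09 after the same rescaling and -0.08 with NOTEST genes included. Edem1, which hands misfolded glycoproteins to degradation, was at 64.5 FPKM in Control and 42.4 in LIPUS (-0.59). Sel1l, the adaptor of the ubiquitin ligase complex in which Herpud1 also acts, was at 25.3 and 16.6 FPKM (-0.58). Syvn1, the ligase of that complex, was at 16.7 and 16.8 FPKM (0.01), and Os9, a lectin that feeds it, was highest (113 to 135 FPKM, 0.26). Sec61b, a subunit of the translocation channel, was the most abundant (139 to 146 FPKM, 0.07).

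**Figure D3:**
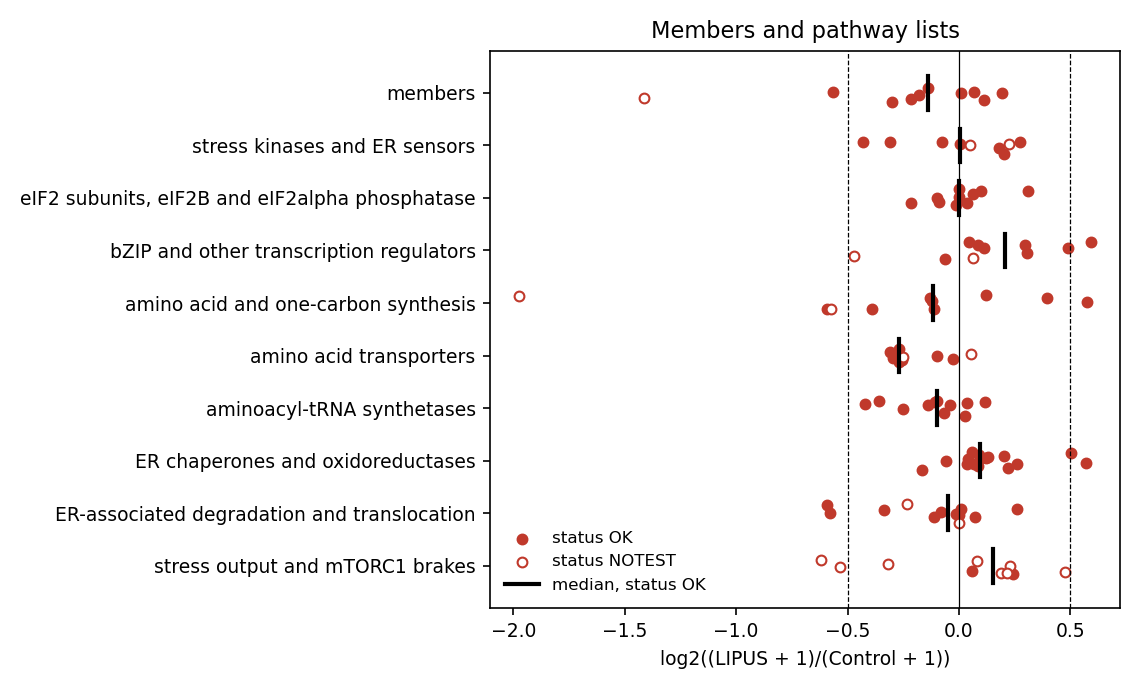
Log2 ratio of every gene of the members and of the 9 pathway lists (horizontal axis; filled, status OK; open, status NOTEST), with the median of the genes with status OK as a black bar and dashed lines at a size of 0.5; vertical scatter within a list has no meaning. The medians run from -0.27 for amino acid transporters to 0.21 for transcription regulators (0.10 with their open symbols included), and most genes lie between the dashed lines.

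The last list held outputs of the response and relatives of the members, and only 2 of its 10 genes had status OK. Gdf15, a stress-induced hormone, was at 17.3 FPKM in Control and 18.1 in LIPUS (0.06), and the death receptor gene Tnfrsf10b at 18.7 and 22.4 (0.24). With status NOTEST, the cell death gene Bbc3 was at 5.65 FPKM in Control and 3.33 in LIPUS (-0.62). Vldlr, a lipoprotein receptor gene, was at 0.487 and 0.0280 FPKM (-0.53), Stc2, a secreted glycoprotein gene, at 0.459 and 0.171 (-0.32), and the hormone gene Fgf21 at 0.325 and 0.551 (0.23). Relatives of 4 of the 6 lower members are given as values only, since they were chosen after their values were seen and all but Trib1 had status NOTEST. Relatives of Asns and Herpud1 were not examined. Beside Trib3 (4.47 to 1.05 FPKM), Trib1 was past the fold in the other direction and Trib2 was at 0.924 FPKM in Control and 1.01 in LIPUS (NOTEST). Chac2, the constitutive relative of Chac1, was at 2.93 FPKM in Control and 3.47 in LIPUS (0.19, NOTEST). Sesn1 was at 3.31 and 3.56 FPKM, Sesn3 at 3.67 and 5.50, and Ddit4l at 4.38 and 5.24, all with status NOTEST.

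**Figure D4:**
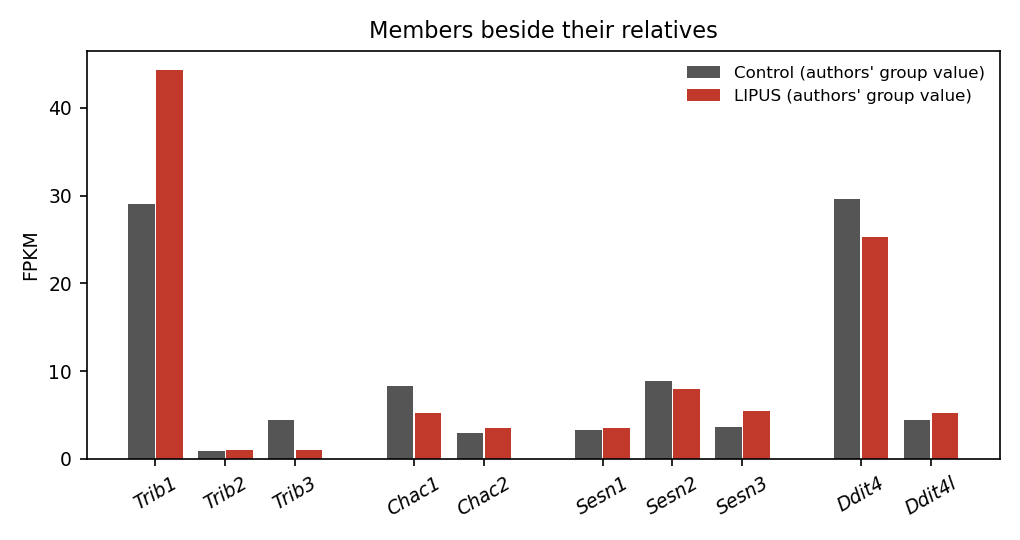
Bars give the authors' group FPKM (vertical axis from 0) in Control (grey) and LIPUS (red) for members and their relatives; there are no error bars, since each group has 1 value. Trib3, Chac1, Sesn2 and Ddit4 are lower with LIPUS, and the relatives drawn, Trib1, Trib2, Chac2, Sesn1, Sesn3 and Ddit4l, are higher. All of these relatives but Trib1 have status NOTEST and levels below 6 FPKM. Trib2 (0.924 FPKM in Control, 1.01 in LIPUS) and Sesn1 (3.31 and 3.56) differ little. The relatives were chosen after their values were seen, and none of the higher members is drawn.

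As a check of the cell label, the osteocyte genes Pdpn (295 FPKM in Control and 402 in LIPUS), Gja1 (176 and 170) and Dmp1 (3.04 and 7.65) were detected, while 4 of 8 osteocyte markers, Sost among them, were listed at 0 in both groups. Of 8 markers of immune, endothelial, epithelial and muscle cells, 5 were listed at 0 in both groups. The summed level of these 8 was 5.88 FPKM in Control and 1.80 in LIPUS, most of it from Cd68 (5.32 and 1.72 FPKM). In such bulk samples fewer cells of a type and less RNA per cell cannot be told apart, and the part of these markers in the results was not tested.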

How the data were processed

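Libraries of 3 LIPUS-treated and 3 control cultures were grouped by their labels. Per the submitters' processing notes, Trimmomatic 0.36, TopHat2 2.1.0, Bowtie2 2.2.6.0, Cufflinks 2.1.1 and Cuffdiff were used with the GRCm38 genome, and the methods name another Cufflinks release and Ensembl transcripts. The authors deposited 1 FPKM per group and gene, pooled over libraries, with a test status. The authors' own fold changes, test statistics, p-values and q-values in the table were not used here.

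The log2 ratios (pseudocount of 1 FPKM, threshold of 0.5) and the rank of each member among its 500 nearest genes in mean level were computed in Python 3.11.15 with numpy 2.4.6 and pandas 2.3.3. No test across replicates could be run on 1 FPKM per group. Members and lists were chosen with earlier results of these data known. Named were all members and, per list, the genes past the fold with status OK or else the highest and lowest, and the most abundant. Eif2ak3, Ern1, Ppp1r15a, Atf3, Cbs, Gpt2, Syvn1, Canx, Creld2, Derl3, Pycr1, Bbc3, Vldlr, Stc2, Fgf21, Os9, Ero1l, Cebpg, Mars, AC144852.1, Cd68 and the relatives of members were named after their values were seen. Positions are from GENCODE M21 (GRCm38) and promoters from RefSeq (GRCm38.p6), with all 10 members matched. The comparison of promoters over all genes was also chosen after seeing the data, as was ranking among genes of any status. Alternatives were other pseudocounts, scalings, filters, thresholds and numbers of nearest genes.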

Additional observations from a re-analysis of the deposited data

How the results depend on the processing

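No paired analysis was possible because the table holds 1 value per group, and for the same reason no replicate could be left out. Under other pseudocounts and scalings, each member except Xbp1 kept the sign of its log2 ratio, Chac1 ran from -0.65 to -0.57, and Trib3 was at -1.99 (pseudocount of 0.1 FPKM), -2.09 (none) and -1.65 (same sum). Trib3 and Chac1 rest on low levels. Restricted to genes with status OK and 10 FPKM or more, 0 members were past the fold. Of all 7011 such genes, 4.96% were lower and 5.18% higher past it. The median over members was then 0.0105 and that of the kinases and sensors 0.18. With status ignored (FPKM of 1 or more, or all genes above 0), 2 members were lower past the fold. Of all such genes, 8.83% and 8.62% were lower past it, in that order. The synthesis enzymes then had 3 lower, the stress outputs 1 and 2 lower, and the median of the transcription regulators was 0.10. After centring or rescaling, 1 chaperone was higher past the fold, beside 5.59% and 5.06% of all genes with status OK. At a threshold of 0.3, 2 members (Chac1 and Herpud1), 2 kinases and sensors, 2 synthesis enzymes and 1 transporter were lower. Also lower were 2 tRNA synthetases and 3 degradation genes. Higher were 1 translation gene, 3 transcription regulators, 2 synthesis enzymes and 2 chaperones. Of all genes with status OK, 13.6% were lower and 13.9% higher at this threshold. At a threshold of 1, 0 members with status OK, 0 synthesis enzymes and 0 degradation genes were lower. Likewise 0 transcription regulators, 0 synthesis enzymes and 0 chaperones were higher. Only 0.663% of all genes with status OK were lower and 0.798% higher at this threshold, so 0 says little about lists this short. In each case the genes kept, the scale or the threshold itself sets the change.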
